A study of Mus musculus with 16 samples.

Results

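The genes of the proteasome are described here as the gene models on which reads of mouse macrophages are placed. They were chosen by symbol: Ensembl protein-coding genes named Psm, followed by a letter from a to g and a digit. The rule found 50 genes among 22159 Ensembl protein-coding genes and 50578 gene models of all kinds, and no measured value entered the choice. By role they are 8 alpha and 7 constitutive beta genes of the 20S core, 3 immunoproteasome beta genes, 1 thymoproteasome beta gene, 6 ATPase and 14 non-ATPase genes of the 19S particle, 5 activator genes, 1 inhibitor gene and 4 assembly chaperone genes. The remaining gene, Psmc3ip, matches the rule by its symbol only. Its product is a meiotic recombination protein and no proteasome subunit, and without it the list holds 49 genes.

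The study compared macrophages grown from bone marrow in M-CSF (50 ng per ml, 7 days), untreated or given the bacterial cell wall lipid lipopolysaccharide (LPS), in 16 libraries. RNA-seq covered wild-type C57BL/6 cells, 3 samples untreated and 3 given LPS. Ribosome profiling, which sequences the RNA fragments that ribosomes protect, covered wild-type C57BL/6 cells, 2 samples not given LPS and 2 given LPS. The titles of all these ribosome profiling samples also carry the label CHX. RiboTag, in which a haemagglutinin-tagged ribosomal protein is immunoprecipitated with its RNA, covered cells of genotype LysM-Cre x RiboTag, with 2 untreated samples, 2 treated for 6 h and 2 for 24 h. The LysM promoter drives Cre in myeloid cells, so the tag marks ribosomes only of cells in which that Cre was active. Values per library were not analysed here. No gene is therefore described as changed by LPS, the depth behind each sample is unknown, and the cell type label was not checked against marker genes.

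The proteasome is the protease that degrades ubiquitin-tagged proteins. Its barrel-shaped 20S core has outer rings of alpha subunits and inner rings of beta subunits, of which the products of Psmb5, Psmb6 and Psmb7 carry the active sites, and the 19S particle at its ends recognises, unfolds and feeds in the substrate. In cells exposed to interferon gamma, and constitutively in many immune cells, the products of Psmb8, Psmb9 and Psmb10 take the place of those of Psmb5, Psmb6 and Psmb7 to form the immunoproteasome, which favours peptides suited to presentation on MHC class I.

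The 20S core genes had short coding sequences of nearly uniform length. The longest complete coding sequence (CDS) of the 19 core genes ran from 201 codons in Psmb2 to 302 in Psmb11, with a median of 250 codons, against a median of 395 (quartiles 257 and 652) over 21598 protein-coding genes with a complete CDS. The 8 alpha genes, whose products form the outer rings and the gate of the barrel, spanned 234 to 263 codons. The 7 constitutive beta genes spanned 201 to 277 codons. Psmb5, the beta subunit with chymotrypsin-like activity, had 264 codons in 3 coding exons, Psmb6, with caspase-like activity, had 238 in 6, and Psmb7, with trypsin-like activity, had 277 in 8.

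The immunoproteasome genes lay within the same range of coding length. Psmb8 had 276 codons in 6 coding exons, Psmb9 219 in 6 and Psmb10 273 in 8. Psmb11, whose product replaces that of Psmb5 in the cortical epithelium of the thymus, had 302 codons in 1 coding exon. A complete CDS in 1 coding exon was found in 2 of the 50 genes (4.0%, 95% interval 1.1 to 13.5%), Psmb11 and Psme2b, against 16.1% of all protein-coding genes with a complete CDS.

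The 19S genes were longer. The 6 ATPase genes, Psmc1 to Psmc6, whose products form the ring that unfolds substrates, ran from 389 codons in Psmc6 to 475 in Psmc2, with a median of 429. The 14 non-ATPase genes were more varied, from 222 codons in Psmd9 to 953 in Psmd1, with a median of 384. Psmd1 and Psmd2, whose products are the large scaffold subunits, had 953 and 908 codons, and no other 19S gene exceeded 530. Psmd14, the deubiquitinase of the lid, had 310 codons in a gene that spanned 88683 bases, the longest gene span among the 19S genes. Psmd5, Psmd9 and Psmd10, known as chaperones of 19S assembly rather than as stable subunits, had 504, 222 and 231 codons.

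Among the genes acting on the core from outside, Psme4 stood apart in size. It encodes the nuclear activator PA200 and had 1843 codons in 46 coding exons, more codons than 97.4% of protein-coding genes. Psme1 and Psme2, the interferon-inducible subunits of the PA28 activator, had 249 and 239 codons, and Psme3, the nuclear PA28 subunit, had 254. The inhibitor gene Psmf1 had 271 codons. The chaperones that pair up during alpha ring assembly had 289 codons in Psmg1, 264 in Psmg2, 122 in Psmg3 and 123 in Psmg4. Psmg3 was the gene with the fewest codons in the list, and 5.31% of protein-coding genes had fewer.

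**Figure D1:**
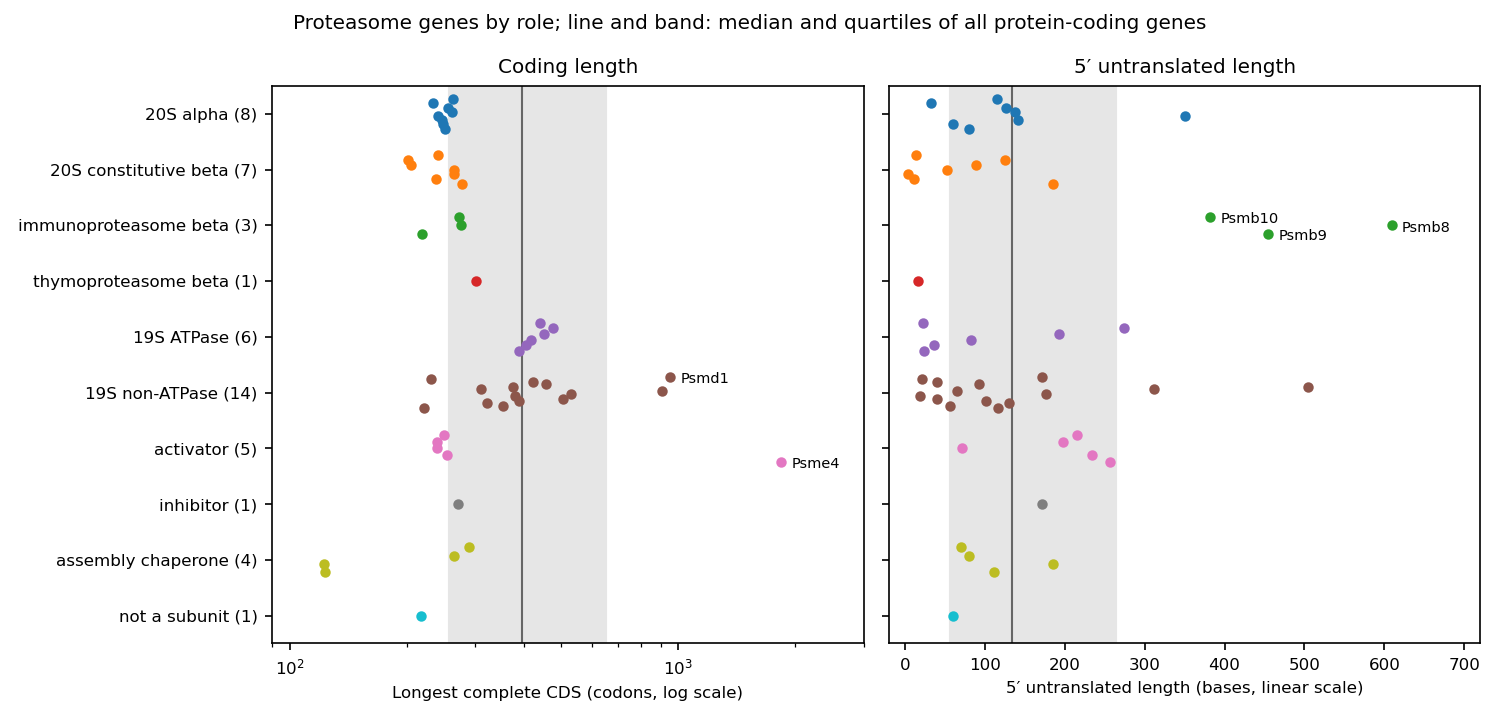
Each point is 1 gene, by role (number of genes in brackets), with the codons of its longest complete CDS on a log axis at left and the 5′ untranslated length of the same transcript in bases at right; the line and grey band are the median and quartiles of all protein-coding genes with a complete CDS (395 codons, 257 to 652, and 134 bases, 57 to 264). The 20S core genes cluster between 201 and 302 codons, and Psmb8, Psmb9 and Psmb10 lie above the upper quartile of 5′ untranslated length. Counted from the RefSeq start, Psmb9 has 21 bases and lies within the range of the constitutive beta genes. Psmb8 then has 204 bases, below the upper quartile drawn, and Psmb10 keeps 382, above it.

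The annotated 5′ untranslated length of the 3 immunoproteasome genes was above that of the constitutive beta genes, but for Psmb9 this rested on the start used. The length was 382 bases in Psmb10, 455 in Psmb9 and 609 in Psmb8, longer than in 86.2%, 90.3% and 95.4% of protein-coding genes. In the 7 constitutive beta genes it ran from 4 bases in Psmb5 to 185 in Psmb7, so the groups did not overlap. These lengths depend on where the annotation starts the transcript. In the RefSeq gene table of assembly GRCm38.p6 the start lay 405 bases further downstream for Psmb8 and 434 for Psmb9, and at the same base for Psmb10. Counted from the RefSeq starts, the 5′ untranslated length was 21 bases in Psmb9, 204 in Psmb8 and 382 in Psmb10, and it ran from 4 to 118 bases in the constitutive beta genes, so Psmb9 then lay within their range. Over all 50 genes the RefSeq start lay within 50 bases of the start used here for 38 and farther away for 12. The 3′ untranslated length of the list was short, with a median of 221 bases against 608.5 over all protein-coding genes. Of the 50 genes, 10 lay above that median, and the longest lengths were 3321 bases in Psmb11, 2842 in Psmd5 and 2822 in Psmf1.

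The exon structure linked some of the immunoproteasome genes to their constitutive counterparts. Psmb10 and Psmb7 both had 8 coding exons, and the last 6 had the same lengths in both genes (98, 141, 116, 59, 152 and 109 bases) with the same reading frame at each junction. No other protein-coding gene held this run of lengths. The whole gene spanned 56052 bases for Psmb7 and 2665 for Psmb10. Psmb9 and Psmb6 shared 3 consecutive lengths (68, 132 and 130 bases), also found in no other protein-coding gene. Psmb8 and Psmb5 shared no run of at least 3 exons, with 6 and 3 coding exons. Psma8, which encodes the alpha subunit of spermatogenic cells, matched Psma7 in the last 6 of 7 coding exons (127, 125, 123, 120, 63 and 90 bases). The whole gene spanned 56149 bases for Psma8 and 6061 for Psma7.

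The activator genes Psme1, Psme2 and Psme3 shared a similar tail. Psme1 and Psme2 had 11 coding exons each and matched in the last 6 (98, 69, 68, 55, 87 and 78 bases), and Psme3 matched both in the last 5. Psme2b carried a CDS of 239 codons, the same number as Psme2, in 1 exon. The annotation names it a protein-coding gene, and reads from sequence that it may share with Psme2 could not be assigned to either by position. The identity of the 2 sequences was not analysed here.

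**Figure D2:**
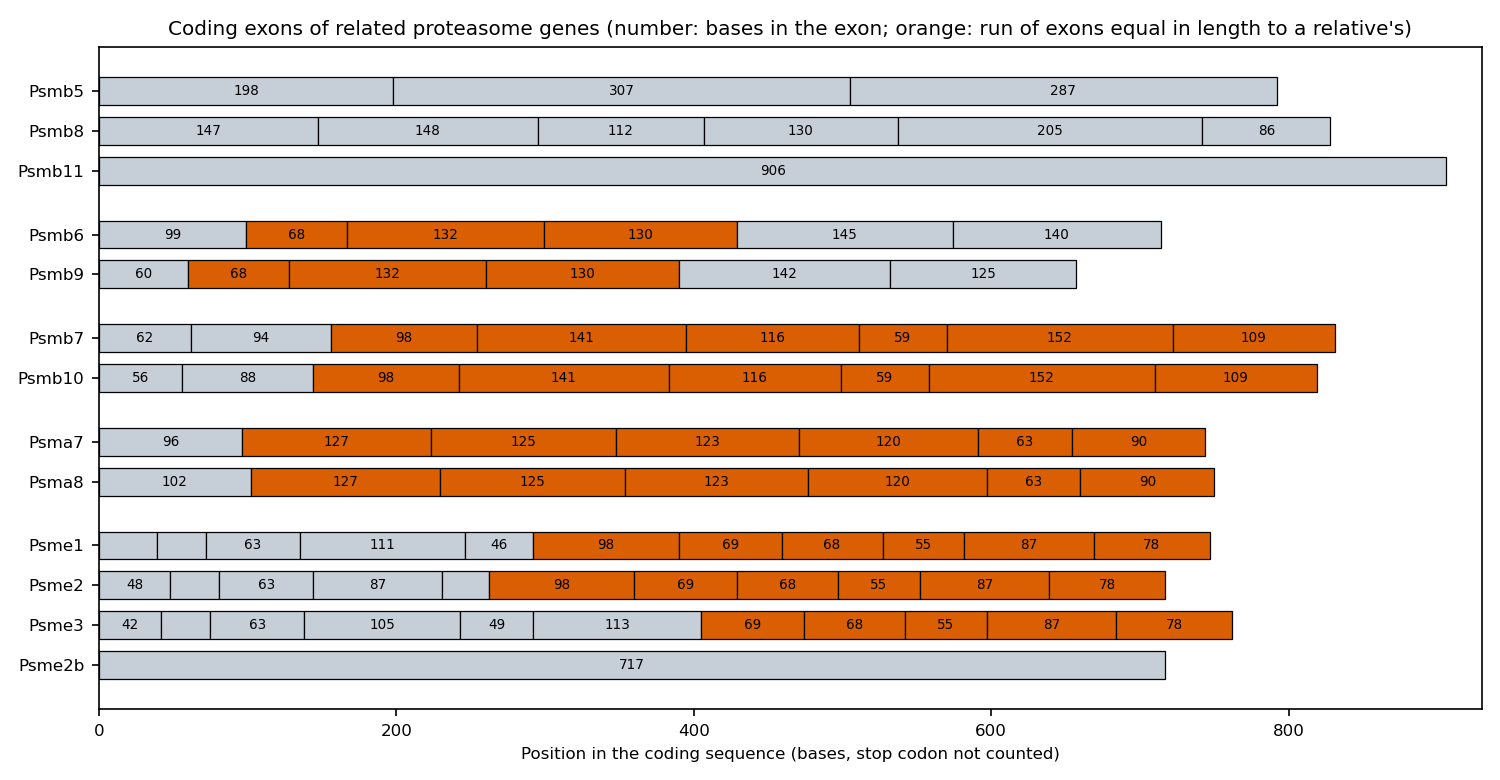
Bars show the coding exons of related proteasome genes along the CDS in bases, with the length written in each exon of at least 40 bases; orange marks runs of at least 3 consecutive exons that have the same lengths as in a related gene. Psmb7 and Psmb10 match in their last 6 exons, Psma7 and Psma8 in their last 6, and Psmb5, Psmb8 and Psmb11 hold no such run.

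The genes were spread over 16 chromosomes. Chromosome 11 held 10, and chromosomes 14 and 2 held 6 each. Of the pairs of members on 1 chromosome, 10 lay within 1000000 bases of each other, and the 3 closest pairs each joined genes of related function. Several of the 10 combine the same chromosome 14 genes, Psmb5, Psmb11, Psme1 and Psme2, at up to 969445 bases. Shares over all protein-coding genes are not given here for these counts, so they do not show clustering.

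The closest were the PA28 genes Psme1, from 55578123 to 55581529 on the plus strand of chromosome 14, and Psme2, from 55587441 to 55591113 on the minus strand, with 5911 bases between them. Emc9, which encodes a subunit of a membrane protein insertase, lay between and overlapped the last 14 exon bases of Psme1 on the opposite strand. Beyond Psme2 lay Rnf31, the catalytic subunit of the linear ubiquitin ligase. Next came Irf9, a subunit of the interferon-induced factor ISGF3, which started 25448 bases from Psme1 and is named here after its position was seen.

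Psmb5 and Psmb11, encoding the constitutive and the thymic subunit of the same site, lay 7314 bases apart on chromosome 14 on opposite strands. Psmb9 and Psmb8 lay 9956 bases apart on chromosome 17, in the MHC region. Tap1 lay between them and Tap2 followed Psmb8. Both encode the transporter that carries proteasome products into the endoplasmic reticulum for loading onto MHC class I.

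**Figure D3:**
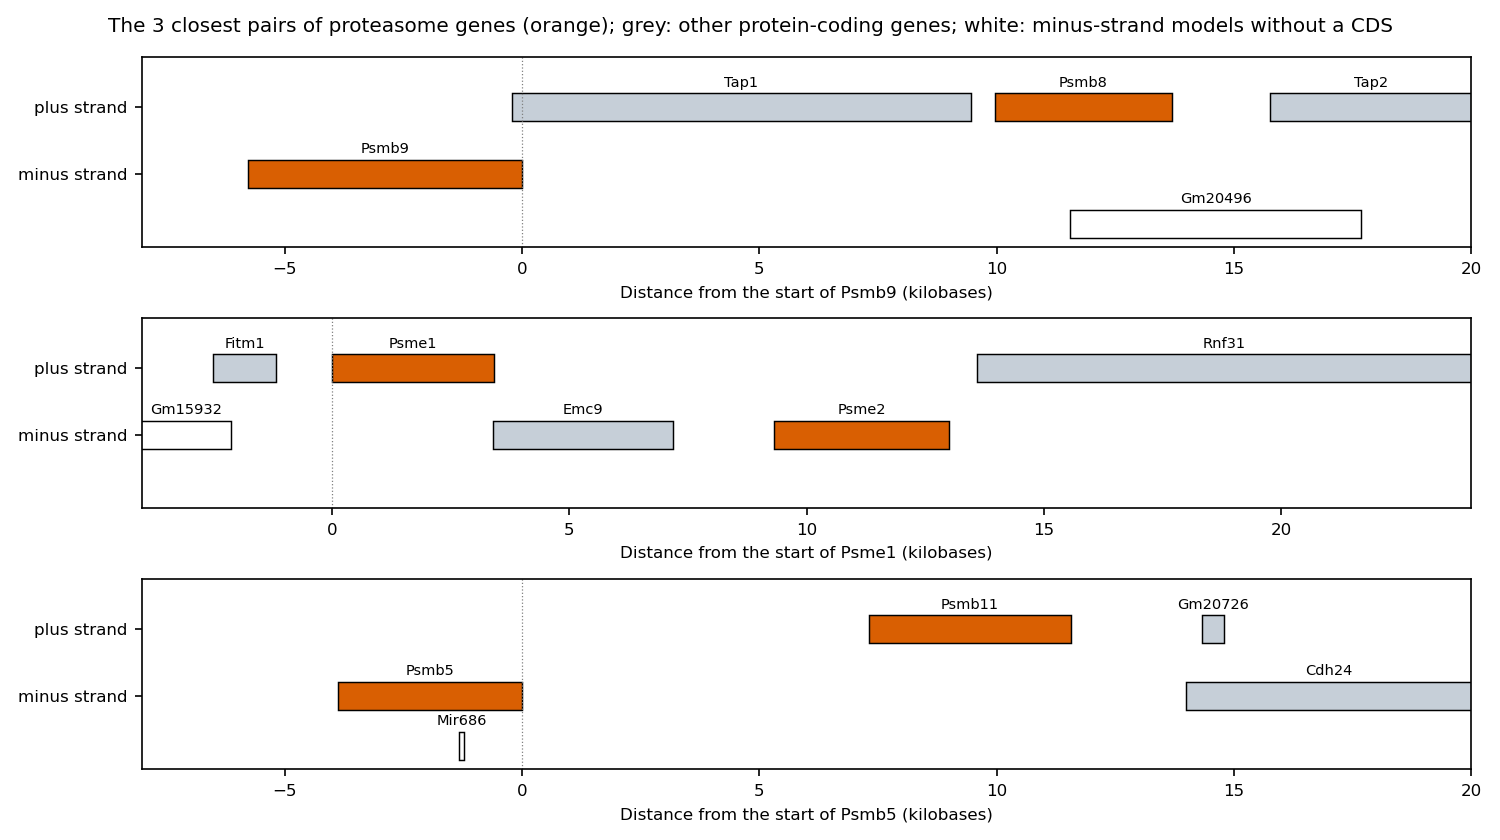
Gene spans on the plus and minus strand around the 3 closest pairs of members, as distance in kilobases from the start of Psmb9, Psme1 or Psmb5; members are orange, other protein-coding genes grey and models without a CDS white, with Gm20496 and Mir686 drawn lower to avoid overlap. Tap1 lies between Psmb9 and Psmb8 and its span overlaps the start of Psmb9 by 212 bases.

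Psmb9 (ENSMUSG00000096727) occupied bases 34181988 to 34187764 of the minus strand. Its start faced away from that of Tap1, at 34187553 on the plus strand. The outermost starts overlapped by 212 exon bases. In the RefSeq gene table the starts of the genes were at 34187330 and 34187556, a difference of 226 bases, with no overlap. Of the 6 Psmb9 transcripts, the one with the full CDS of 219 codons (Psmb9-001) started at 34187764, and 2 retained intron transcripts, Psmb9-004 and Psmb9-002, started at 34187338 and 34187353, near the RefSeq start. Reads in the overlapping exon bases can be assigned to Psmb9 or Tap1 by strand only, and the use of strand in counting was not analysed here.

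Psmb9 and Tap1 were 1 of 11 head-to-head pairs. In 11 of the 50 genes (22.0%, 95% interval 12.8 to 35.2%) a protein-coding gene on the opposite strand started within 1000 bases and pointed away, against 10.6% of all protein-coding genes. Within 300 bases the count was 8 of 50, against 7.22%, and within 2000 bases 12 of 50, against 11.9%. With starts of models of any kind counted, it was 14 of 50 (28.0%) against 16.8%. Without pairs whose starts overlap, which leaves out Psmb9 and Tap1, it was 7 of 50 (14.0%, 95% interval 6.95 to 26.2%) against 6.86%, so 4 of the 11 pairs rested on overlapping models.

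The partners had varied functions. In the core, Psma2 started 205 bases from Mrpl32, a mitochondrial ribosomal protein gene, and Psma7 started 76 bases from Ss18l1, a chromatin remodelling factor gene. Psma4 and AY074887 started 208 bases apart within each other's span. In the 19S particle, the ATPase genes Psmc2 and Psmc5 started 32 bases from the ribosome-associated chaperone gene Dnajc2 and 75 bases from the ribosome biogenesis gene Ftsj3. Psmd10 started 179 bases from Atg4a, a protease gene of autophagy, and Psmd13 and the mitochondrial deacetylase gene Sirt3 overlapped at their starts by 152 exon bases. The annotated starts of Psmd13 and Sirt3 overlapped by 341 bases. The RefSeq start of Psmd13 lay 426 bases downstream of the annotated one, so from it the start of Sirt3 was not overlapped. For Psmd5 and Cutal the pair rested on 1 alternative start, since the transcripts with the longest CDS started 3434 bases apart. Psme2 started 595 bases from Rnf31 and Psmg2 263 bases from the centrosomal protein gene Cep76.

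The bases between the starts are shown for 4 of these pairs, since by the annotated starts each stretch lies directly upstream of both genes. The RefSeq starts of Psma7 (180042464) and Psmc2 (21785275) lie inside their stretches. They are written 5′ to 3′ on the strand of the proteasome gene, from RefSeq sequence of GRCm38.p6, in lower case. Capitals mark matches to the GC box (GGGCGG), the CCAAT motif and an ETS factor motif (CCGGAAG), on either strand. The stretches are chr2:180042434-180042508 on the minus strand for Psma7, chr5:21785252-21785282 on the plus strand for Psmc2, chr11:106256080-106256153 on the plus strand for Psmc5 and chrX:140956729-140956906 on the minus strand for Psmd10.
Psma7: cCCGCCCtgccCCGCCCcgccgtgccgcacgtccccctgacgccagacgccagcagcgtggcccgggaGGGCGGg
Psmc2: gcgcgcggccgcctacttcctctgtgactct
Psmc5: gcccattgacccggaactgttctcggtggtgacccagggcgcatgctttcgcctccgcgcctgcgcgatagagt
Psmd10: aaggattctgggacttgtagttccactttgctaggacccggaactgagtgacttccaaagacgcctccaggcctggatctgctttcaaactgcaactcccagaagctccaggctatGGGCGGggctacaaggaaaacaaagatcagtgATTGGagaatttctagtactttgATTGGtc

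Psma7 and Ss18l1 were separated by 75 bases with 3 GC boxes, of which the last lay 25 to 30 bases after the RefSeq start of Psma7. Psmc2 and Dnajc2 had 31 bases between their starts and Psmc5 and Ftsj3 had 74, with none of the 3 motifs in either. The stretch between Psmd10 and Atg4a held 1 GC box and 2 CCAAT matches. A match is a match of letters and does not show that a factor binds there.

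RefSeq promoter windows of 300 bases, from 250 before to 50 after the start, were matched by symbol for 42 of the 50 genes, and 3 of these genes had 2 windows, which gave 45. Their GC content had a median of 57.3%, against 52.7% over all 32851 windows and 56.3% over the 21263 windows of protein-coding genes. The median number of CpG dinucleotides was 19, against 7 and 13. Because base composition bears on how often a motif occurs, shares are also given for windows with at least 12 CpG, the lower quartile of the proteasome windows, which 36 of the 45 and 11231 windows of protein-coding genes reached.

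The ETS motif (CCGGAAG) was found in 16 of the 45 windows (35.6%), from 15 genes, against 8.86% of all windows and 11.6% of protein-coding windows. Among windows with at least 12 CpG it was found in 15 of 36 (41.7%), against 19.1%. The 15 genes were mostly outside the core. They included 3 ATPase genes (Psmc1, Psmc2 and Psmc6), 6 non-ATPase genes (Psmd2, Psmd4, Psmd6, Psmd11, Psmd12 and Psmd13), the activator genes Psme3 and Psme4 and the assembly chaperone genes Psmg1 and Psmg3. The others were Psma6, the 1 core gene among them, and Psmc3ip, which is no subunit. None of the 8 beta genes with a window, immunoproteasome genes included, held it. In 8 of the 16 windows a match lay wholly within the 60 bases before the start, against 39.9% of the protein-coding windows that held the motif. Of these 8, 1 was the downstream window of Psmc2, whose start lies 1464 bases downstream of the start of the coding transcript. Its match lay within the CDS, which starts at 21786689. The motif with 10 bases on each side is shown for 6 of the 19S genes, to show how its flanks vary. These stretches are chr12:100110164-100110190 for Psmc1, chr14:45329714-45329740 for Psmc6, chr16:20651616-20651642 for Psmd2 and chr11:80428594-80428620 for Psmd11, all on the plus strand, and chr3:95042723-95042749 for Psmd4 and chr14:14120974-14121000 for Psmd6 on the minus strand, each written on the strand of its gene.
Psmc1: ggtggatgcaCTTCCGGcggtggcgat
Psmc6: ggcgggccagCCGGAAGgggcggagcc
Psmd2: ccgcagggcgCTTCCGGtctggaggac
Psmd11: gagggcgggtCTTCCGGgtgtgtgttt
Psmd4: tacagctgttCCGGAAGctgctgcgaa
Psmd6: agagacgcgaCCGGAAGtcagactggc

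Of these 6, Psmc6, Psmd4 and Psmd6 held the motif on the strand of the gene and Psmc1, Psmd2 and Psmd11 on the other strand. Beyond the motif the flanks were not alike.

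Neither the GC box nor the CCAAT motif was more frequent than in protein-coding windows when both groups were limited to at least 12 CpG. Above that limit the CpG content of the groups was not matched. The GC box was found in 24 windows (53.3%), against 35.7% of all and 46.2% of protein-coding windows, but among windows with at least 12 CpG it was found in 61.1%, against 74.6%. The CCAAT motif was found in 15 (33.3%), against 37.4% of all windows, and with at least 12 CpG in 27.8%, against 36.4%. Of the 7 alpha genes with a window, 5 held it (Psma1, Psma2, Psma3, Psma6 and Psma7). Psma6 held it only in the window of its upstream start, 55384222, and not in the window near the start of its main coding transcript. The TATA motif (TATAAA) was found in 4 (8.89%), against 13.6%, and with at least 12 CpG in 8.33%, against 4.95%. The cyclic AMP response element (TGACGTCA) was found in 0 of 45 windows, against 1.79%, and this says only that these letters are not in these windows.

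Motifs of inflammatory and interferon signalling are given next because LPS and interferon act through factors that recognise them. The interferon-stimulated response element, searched as GAAANNGAA, was found in 7 windows (15.6%), against 8.56% of all windows, and with at least 12 CpG in 16.7%, against 5.46%. The 7 genes were Psmb3, Psmb4, Psmc2, Psmd4, Psmd9, Psme1 and Psmg4, so Psme1 was the only immunoproteasome or PA28 gene among them. For Psmc2 the match was in its downstream window, whose start lies 1464 bases downstream of the start of the coding transcript. That match lay within the CDS, which starts at 21786689. The count fell to 3 when only bases before the start, or only the strand of the gene, were searched. The shares of all windows under these narrower searches are not given here, so those counts cannot be set against 8.56%. The interferon gamma activated site, searched as TTCNNNGAA, was found in 3 windows (6.67%), those of Psmb8, Psmd2 and Psmg1, against 8.3%. The NF-kappaB motif was found in 1 window (2.22%), that of Psmd12, against 4.51%. The antioxidant response element, searched as TGACNNNGC, was found in 6 windows (13.3%), against 12.4%, and Psmb5 and Psmb6, 2 of the catalytic genes, were among them.

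For 5 catalytic or interferon-inducible genes, 1 match each is shown with 10 bases on each side, on the strand of the gene. They are the activated site of Psmb8 (chr17:34198088-34198116, plus strand), the GC box of Psmb9 (chr17:34187370-34187395, minus), the response element of Psme1 (chr14:55578494-55578522, plus) and the antioxidant elements of Psmb5 (chr14:54618024-54618052, minus) and Psmb6 (chr11:70525338-70525366, plus).
Psmb8: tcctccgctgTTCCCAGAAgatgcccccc
Psmb9: cgcgatgatgGGGCGGggcctcagtc
Psme1: gagctgtgctTTCGCTTTCccttcccgct
Psmb5: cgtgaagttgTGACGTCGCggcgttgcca
Psmb6: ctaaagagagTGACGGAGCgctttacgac

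In Psmb8 the match began 97 bases before the RefSeq start, which is 308 bases downstream of the start of the coding transcript used here, so it lay within an exon of that model. In Psmb9 the GC box lay 55 to 50 bases before the RefSeq start, between the RefSeq starts of Psmb9 and Tap1. In Psme1 the match lay 11 to 19 bases after the RefSeq start and ran on the opposite strand. In Psmb5 the match lay 47 to 39 bases before the RefSeq start. In Psmb6 it lay 9 to 1 bases before base 70525357, the start on which its RefSeq window was placed. The RefSeq gene table starts Psmb6 further upstream, at 70525324, and the match lies downstream of that start. Not shown are a TATA match of Psmb8, from base -237 to base -232 relative to the RefSeq start, CCAAT matches of Psmb9 (base -8 to base -4) and Psmb11 (base -155 to base -151), and the GC boxes of Psmb6, Psme1 and Psme2. The window of Psmb10 held none of the 9 motifs. It had 3 CpG dinucleotides, against 11 for Psmb8 and 17 for Psmb9.

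**Figure D4:**
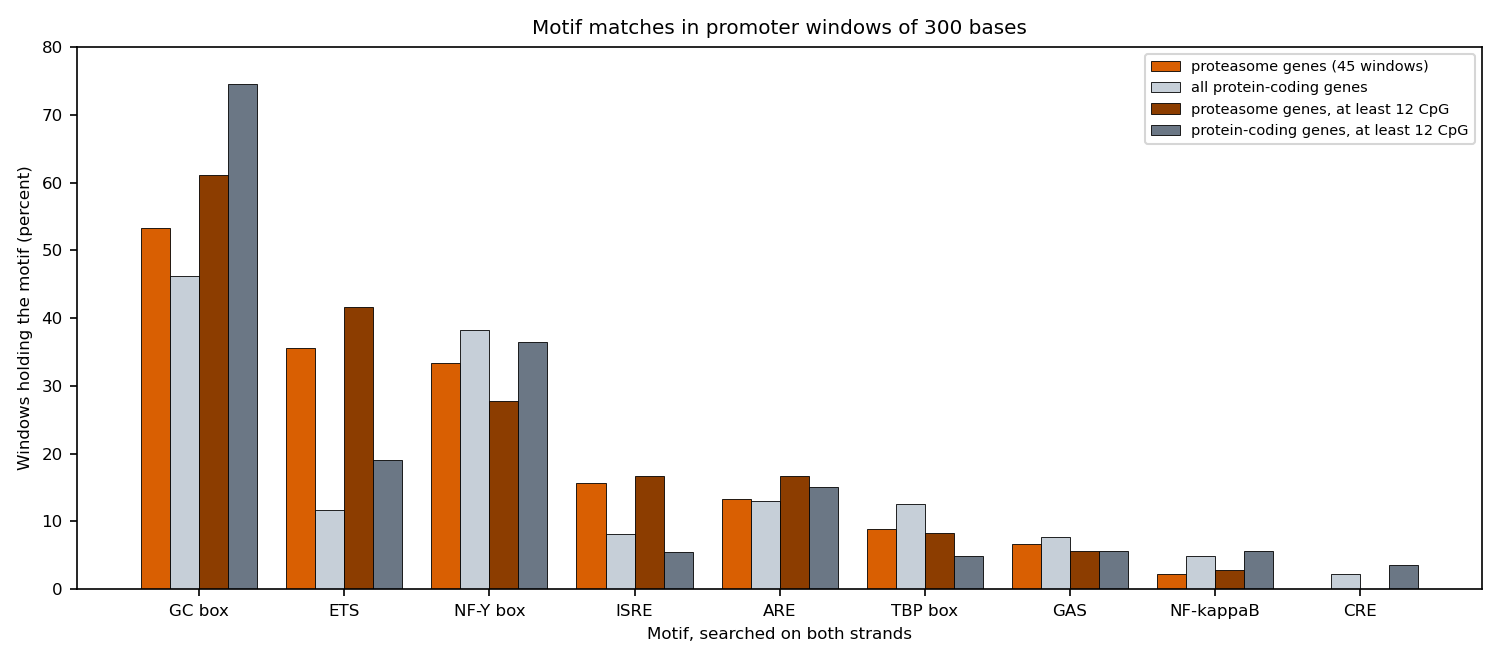
Bars give the percent of promoter windows of 300 bases that hold each motif on either strand, for 45 windows of proteasome genes, 21263 windows of protein-coding genes, and the windows of each with at least 12 CpG dinucleotides; NF-Y box and TBP box stand for the CCAAT and TATA motifs, ISRE, ARE and CRE for the interferon-stimulated, antioxidant and cyclic AMP response elements, and GAS for the interferon gamma activated site. The ETS motif is found in 35.6% of proteasome windows against 11.6%, and for the GC box the order of proteasome and protein-coding windows turns when only CpG-rich windows are counted.

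The annotation gave the 50 genes 231 transcripts, and a large part of them had no CDS. They numbered 114 (49.4%, 95% interval 43.0 to 55.8%), against 33.3% of the 82460 transcripts of all protein-coding genes. The interval counts each transcript as a separate unit and does not allow for the grouping of the 231 transcripts in 50 genes. Retained intron transcripts, which keep an intron that is normally removed, made up 71 of the 231 (30.7%), against 18.8%, and 25 of the 50 genes had at least 1 (50.0%, against 30.0%). Transcripts marked for nonsense-mediated decay, the pathway that removes RNAs with an early stop codon, numbered 21 (9.09%, against 5.99%). The list also had fewer genes with a single transcript, 11 of 50 (22.0%) against 39.0%. The part of transcript number in these shares was not tested.

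By role, the share without a CDS was 17 of 35 transcripts in the alpha genes, 12 of 19 in the constitutive beta genes and 4 of 10 in the immunoproteasome genes. It was 11 of 22 in the ATPase genes, 44 of 89 in the non-ATPase genes and 19 of 35 in the activator genes, and lower, 2 of 10, in the assembly chaperone genes. Among the PA28 genes, retained introns made up 6 of 12 transcripts in Psme1 and 7 of 10 in Psme2, but 0 of 5 in Psme3 and 0 of 1 in Psme2b. In the core genes they made up 5 of 7 in Psma7 and 4 of 5 in Psmb4. In Psmd14, 7 of 8 transcripts were processed transcripts without a CDS. Psmd11, a lid subunit gene, had the most transcripts of the list, 15, of which 7 were marked for nonsense-mediated decay. Psmb9 had 3 retained intron transcripts of 6 and Psmb8 1 of 3, while Psmb10 had 1 transcript in all.

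**Figure D5:**
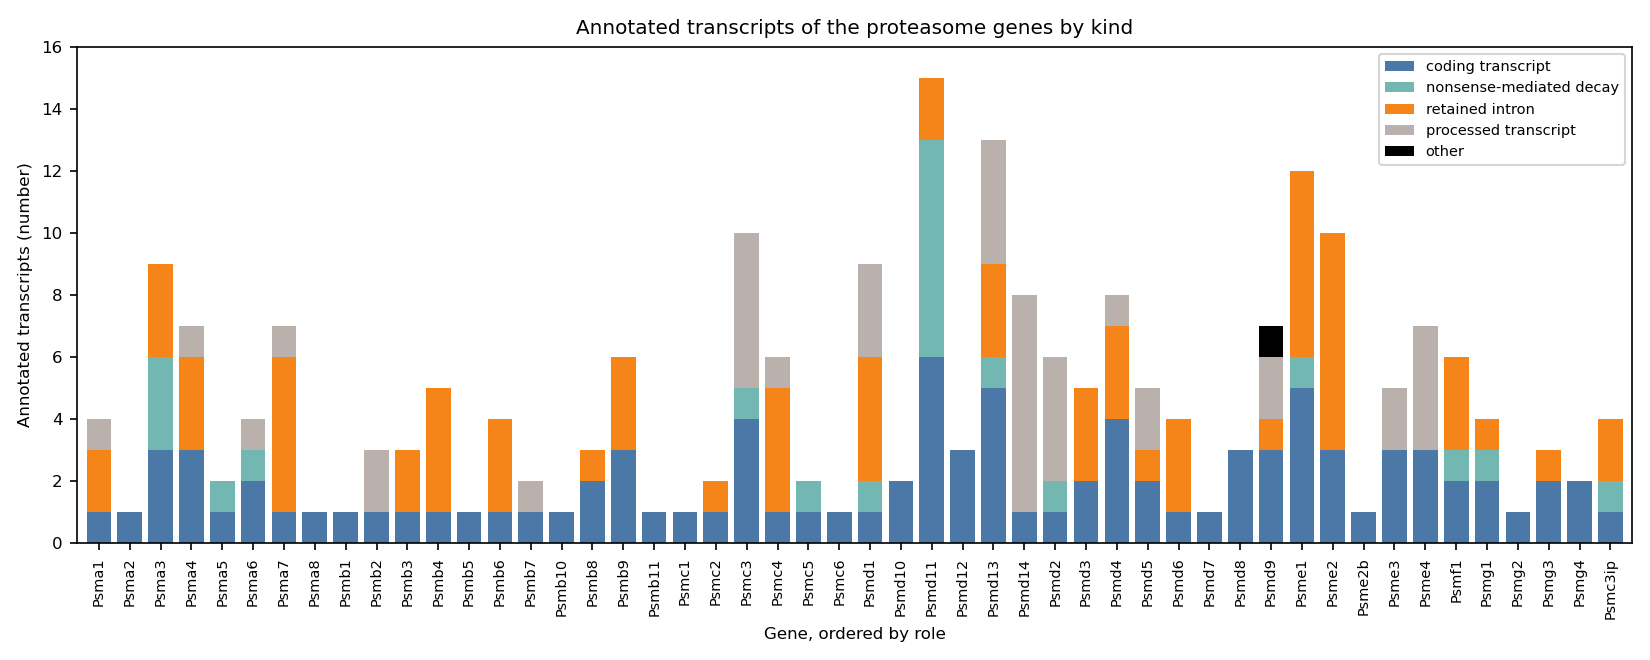
Stacked bars give the number of annotated transcripts of each of the 50 genes, ordered by role and coloured by kind. Psmd11 is highest with 15, and retained introns make up 6 of 12 in Psme1 and 7 of 10 in Psme2.

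Several members had more than 1 complete CDS. Psmd4, the ubiquitin receptor of the 19S particle, had complete coding sequences of 379, 376 and 368 codons. Psmd8 had 353 and 289 codons, Psmd10 231 and 151, and Psmd12 456, 436 and 418. For Psma6 a coding transcript of 227 codons started at 55384222, upstream of the main one of 246 codons at 55398775, and RefSeq windows were given for both starts. The earlier window held 3 CpG dinucleotides and none of the ETS motif, and the later one 22 and 3 matches. For Psmd9 the span was extended by a processed transcript, Psmd9-004, that started at 123169413, far upstream of the coding start at 123228190.

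Few members shared exon bases with another gene on the same strand, where reads cannot be told apart by position. There were 4 of 50 (8.0%, 95% interval 3.15 to 18.8%), against 13.3% of protein-coding genes. Psmb5 shared 109 bases, 12.51% of its exon bases, with the microRNA gene Mir686. Psmd1 shared 301 with Gm21972, Psmg3 280 with Gm26938 and Psme2b 41 with 9930111J21Rik1. No immunoproteasome gene was among them.

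Exons lay over exons of a gene on the opposite strand in 15 of 50 (30.0%, 95% interval 19.1 to 43.8%), against 22.0%. The overlap was 1849 bases in Psmd9 (25.51% of its exon bases, with Gm26745), 552 in Psmc6 (35.29%, with Gm20266) and 319 in Psmg2 (30.12%, with LOC100861930). For the immunoproteasome genes it was 212 bases in Psmb9 (5.79%, with Tap1) and 186 in Psmb8 (6.8%, with the antisense model Gm20496), and Psmb10 had none. Reads from these bases belong to either gene unless strand is used.

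Processed copies are a second source of ambiguous reads. The annotation held 4 pseudogenes with a member symbol, each of 1 exon. They were Psmb5-ps on chromosome 11 (798 bases), Psmb6-ps on chromosome X (713), Psmb6-ps2 on chromosome 1 (705) and Psmb7-ps2 on chromosome X (820). The gene model Gm8394 on chromosome 10, from 85313488 to 85314439, was listed as protein-coding with a CDS of 241 codons in 1 exon. Psma5 also had 241 codons, and the RefSeq gene table names that model Psma5-ps. Its name places it outside the rule, and its sequence identity to Psma5 was not analysed here.

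The genes that work with the proteasome were looked up under the same annotation. Of 17 listed partner symbols, 13 named a gene model. Sem1, Paaf1, Ecm29 and Ecpas were not found under that symbol, while Shfm1 and AI314180, older symbols of Sem1 and Ecpas, were. Pomp, the maturation factor of the core, had 141 codons, and Adrm1, a ubiquitin receptor, had 407 codons with 6 of 8 transcripts as retained introns. Shfm1 had 70 codons, AI314180 had 1840 and Nfe2l1, the transcription factor that raises proteasome genes when the proteasome is inhibited, had 742. A head-to-head coding start within 1000 bases was found for 1 of the 13 partners, Uchl5, at 204 bases from Trove2, against 10.6% of all protein-coding genes.

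All 9 peptide loading genes on the list were found. The transporter genes Tap1 and Tap2 had 724 and 702 codons, B2m, the light chain of MHC class I, had 119, and Nlrc5, the activator of MHC class I genes, had 1915. Head-to-head starts within 1000 bases were found for 2 of the 9 peptide loading genes, Tap1 and Pdia3, against 10.6% of all protein-coding genes. Both rested on overlapping models, with 212 exon bases overlapped on the opposite strand in Tap1 and 18 in Pdia3. The pair of Tap1 is the Psmb9 pair described above.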

How the data were processed

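The study sequenced RNA, ribosome-bound RNA and ribosome-protected fragments of 16 macrophage samples. The file analysed here was deposited by the authors as a gene annotation. Its values are positions in bases, counted from 1 per the file itself, and 0 columns hold values per sample, so no library comparison was run. TopHat2 2.1.1 and the build mm10 (GRCm38) appear per the submitters' processing notes, without their roles. The assembly of the annotation and the counting of reads are not given in the sources used here.

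Gene models were read with Python 3.11.15, pandas 2.3.3, numpy 2.4.6 and scipy 1.17.1. Coding and untranslated lengths came from the transcript with the longest complete CDS, without the stop codon. Start distances used the outermost start of each gene, and a negative gap was counted as an overlap. Overlap meant at least 1 shared exon base. Shares carry Wilson 95% intervals, for counting error alone. Since genes do not replicate one another, no p-value is given. Promoter windows and starts came from RefSeq tables of GRCm38.p6. Windows of 300 bases were searched for 9 motifs on both strands, and matches of different motifs could overlap. Windows of head-to-head pairs can overlap, and windows of protein-coding genes were taken by the RefSeq biotype. Tested on simulated data, the code got 400 of 400 start gaps, 400 of 400 overlaps and 800 of 800 coding structures right.

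By rule all members could be named, with listed partner and peptide loading genes, nearest coding neighbours, models sharing exon bases and pseudogenes of members. The members and lists were chosen with earlier results of these data known. The list of ubiquitin genes is not reported here.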

Additional observations from a re-analysis of the deposited data

How the results depend on the processing

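Alternatives gave 48 values, of which 8 moved and the other 40 did not. Some of the 40 could not move. Narrower searches for the cyclic AMP response element started from a count of 0. The core coding length from complete transcripts only repeated the main definition. A count had to stay within 1.5 times, and a share within its own 95% interval. The 4 genes sharing exon bases on the same strand became 18 on either strand and 0 when over 50% of the exon bases had to be shared, which follows from the wider and the stricter rule. The other 6 were motif counts, lower because fewer bases or strands were searched. With bases before the start only, the interferon-stimulated response element went from 7 windows to 3. On the strand of the gene only, it went from 7 to 3, NF-kappaB from 1 to 0, the antioxidant response element from 6 to 3, the GC box from 24 to 14 and the ETS motif from 16 to 10. Shares of all windows under these narrower searches are not given here, so the lower counts have no background beside them. The share of head-to-head pairs, 22.0%, ranged from 14.0% without overlapping starts to 28.0% with starts of any model. Counted from the RefSeq starts, 2 of the 3 immunoproteasome genes had a longer 5′ untranslated length than every constitutive beta gene. The list without Psmc3ip, the starts of the longest coding transcripts, the head-to-head pairs without overlap, the lengths from the RefSeq starts and the CpG-rich windows were chosen after seeing the data.

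No paired analysis was possible because the file analysed holds positions only. The comparisons of LPS with untreated libraries and the protein identity of the immunoproteasome subunits were not run. Sequencing depth does not limit these counts, and the number of reads in overlapping exons was not analysed here.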
